A study of Apis mellifera with 6 samples.

Results

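The 69 genes described here were at least 10-fold higher in active honeybee ovaries than in inactive ovaries. They were chosen on their RPKM (reads per kilobase of gene model, scaled to the number of mapped reads) in 6 RNA-seq libraries. A gene was kept where the smallest of its 4 values in queen-less workers and queens was at least 10 RPKM and at least 10 times the larger of its 2 values in queen-right workers, with a queen-right value of 0 counted as 0.1. Of 11169 gene entries 70 met this rule and mael was left out, so the members make up 0.618% of all entries. The differences from queen-right workers chose the members. They are given as a description and carry no test. Against queen-right workers, 67.6% of the 8778 entries tested by limma were called in queen-less workers and 71.8% in queens, so a difference as such was common. The mirrored rule, for entries at least 10-fold lower in both active groups, took 157 entries (1.41%).

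The ovaries came from Apis mellifera females of managed hives. Queen-right workers lived in hives with a laying queen and had ovaries scored 0 for activity. Queen-less workers lived in nucleus boxes from which queen cells were removed, were dissected 2 to 4 weeks after the colony lost its queen, and had ovaries scored 3. Queens were about 12 months old, laid eggs in their own colonies, and the labels give no ovary score for them. Each group is represented by 2 RNA pools, called pool 1 and pool 2, with 1 library made of each. The number of bees in an RNA-seq pool is not given in the sources used here. Each pool is bulk tissue, so fewer cells of a type and less RNA per cell cannot be told apart.

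In the honeybee ovary each germline cyst forms an oocyte, which grows while its sister nurse cells load it with maternal RNA. The oocyte also takes up yolk protein from the haemolymph through receptors on its surface. Follicle cells of somatic origin surround the oocyte and secrete the layers of the eggshell. Queen pheromone keeps the ovaries of honeybee workers inactive, and when the queen is lost some workers activate their ovaries and lay eggs. Of the 69 genes 13 carry a symbol, and the others carry only a LOC identifier to which no function is given here.

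The sum of RPKM over all entries was 385121 and 411992 for queen-right workers and between 330953 and 336392 for the other 4 libraries. Among low values, the RPKM that 1 read is worth differed between any 2 libraries by a ratio of 0.948 to 1.03, so relative depth was alike. The product of RPKM and gene span did not fall below 180 to 190 in any library for entries at 0.2 RPKM or more. If this edge is the value of 1 read in a gene without introns, each library held about 5250000 to 5560000 mapped reads. The muscle markers summed to 2766 and 3449 RPKM in queen-right workers, 269 to 301 in queen-less workers and 136 to 154 in queens. Of the 10 muscle genes tested, 8 were lower in queen-less and 9 in queen ovaries than in queen-right ovaries, and none was higher (limma, adjusted p under 0.05). TpnCIIb, a troponin C, was at 0 in all 4 active libraries, but at only 1.24 and 1.22 RPKM in queen-right workers. TpnCIIa, on the same list, was called in neither active group by limma. It was at 19.7 and 29.49 RPKM in queen-right workers, 18.79 and 25.76 in queen-less workers and 25.34 and 17.98 in queens. Of 9 fat body genes 8 were lower in each active group and 1, Tf, was higher. Tf was at 84.9 and 58.8 RPKM in queen-right workers and 141 to 150 RPKM in the others. Of 4 haemocyte genes 4 were lower in each active group. Among all entries tested, 37% were called lower in queen-less workers and 40.6% in queens. The part of these cell types in the levels of the 69 genes was not tested. vas, a germline RNA helicase, was present in every library, at 18.6 and 16.7 RPKM in queen-right workers and 138 to 201 RPKM in the others. No other of the 10 germline genes tested rose as much. Their median log2 difference from queen-right ovaries was 0.47 for queen-less ovaries and 0.40 for queen ovaries. By limma 6 of the 10 rose in queen-less ovaries and 5 in queen ovaries, while 1, orb, fell in both.

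The word "switched on" holds only in part for these genes. In queen-right workers 46 of the 69 were at 1 RPKM or more in both pools, 60 in at least 1 pool, and 21 reached 10 RPKM or more in a pool. Only 9 genes were under 1 RPKM in both pools, and 2 were at 0 in a pool. In queen-less workers and queens the members lay between 10.4 and 5569 RPKM. Together they took 0.367% and 0.16% of the summed RPKM in queen-right worker pools 1 and 2. The same genes took 8.01% and 8.23% in the queen-less worker pools and 9.81% and 9.98% in the queen pools. None ranked among the 100 highest entries of either queen-right library, against 15 in each queen-less worker library and 19 in each queen library.

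**Figure D1:**
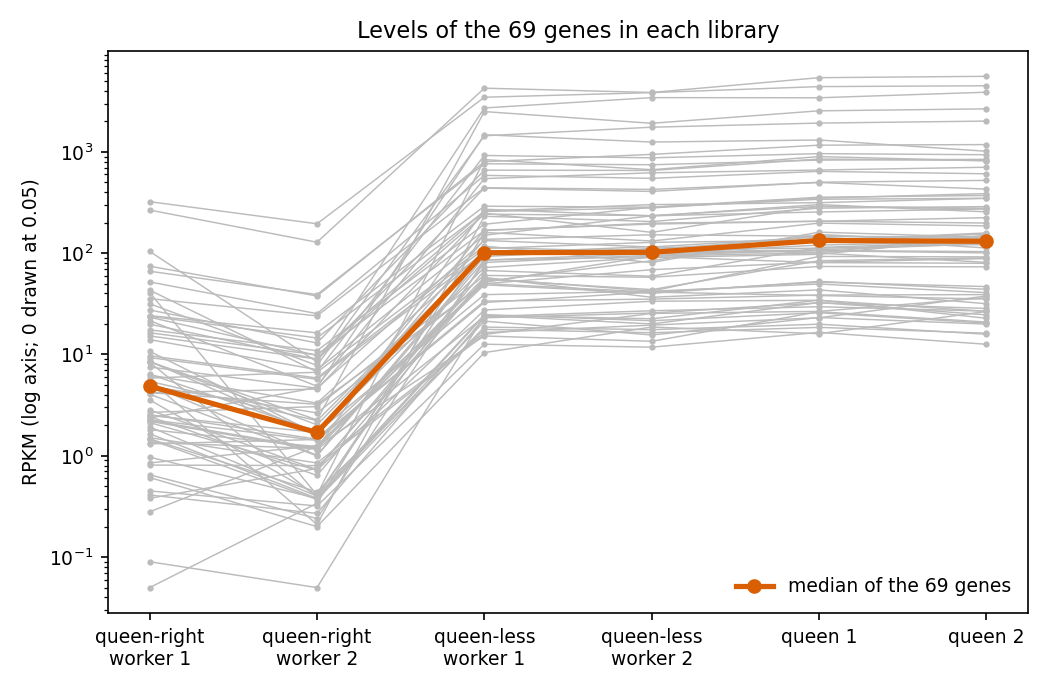
RPKM of the 69 genes in the 6 libraries on a log axis, with 1 grey line per gene and the median in orange. The median was 4.87 and 1.7 in the queen-right worker pools, 101 and 102 in the queen-less worker pools and 133 and 131 in the queen pools.

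The 2 queen-right worker pools differed in these genes. Pool 1 was above pool 2 in 60 of the 69 genes and below it in 9. In the 68 genes above 0 in pool 2 the median ratio of pool 1 to pool 2 was 1.94, while in the 8661 other tested entries above 0 in both pools it was 0.981. The ratio was 2 or more in 32 of the 69 genes, against 2.79% of the other entries. Among the 3236 other entries whose larger queen-right value lay between 1.81 and 16.4 RPKM, the middle range of the members, it was 2 or more in 4.76%. The widest gap was that of LOC100578571, at 40.9 RPKM in pool 1 and 0.41 RPKM in pool 2. Of 10 germline genes 2 were higher in pool 1, and the median ratio of the 10 was 0.888. These 2 were vas, at 18.6 and 16.7 RPKM, and pum, at 43.7 and 31.8 RPKM in pools 1 and 2. Of 9 fat body genes 7 were higher in pool 1 with a median ratio of 1.26, and of 10 muscle genes 1 was, with a median of 0.862. What set the pools apart was not tested. The rule is bounded by the larger queen-right value, which is mostly that of pool 1. It would keep 112 genes without pool 1 and 69 without pool 2.

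**Figure D2:**
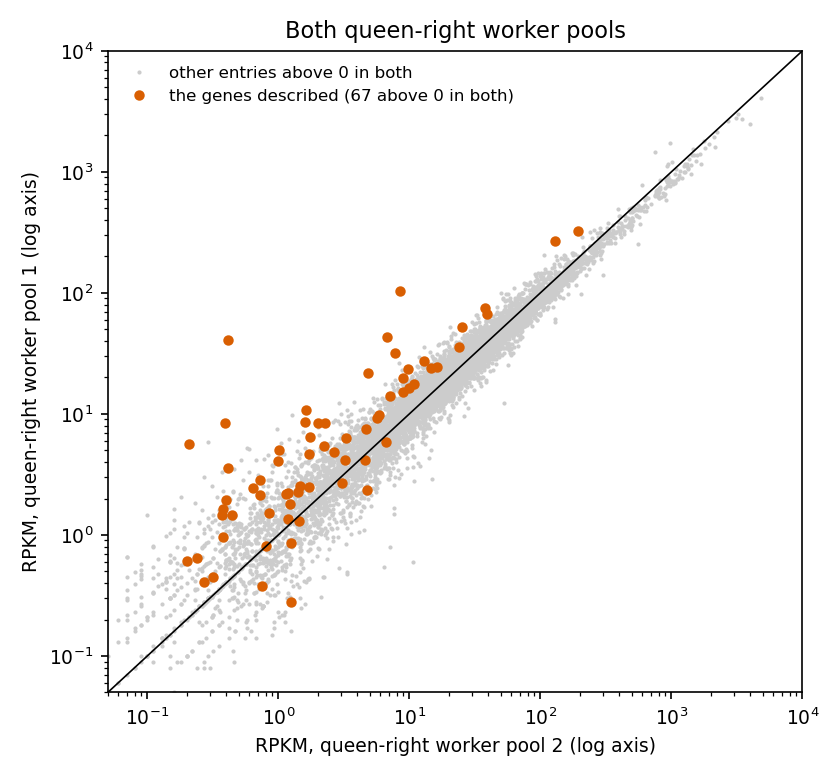
RPKM in queen-right worker pool 1 against pool 2, both on log axes, with the line of equal values. Orange points are the genes described, most of them above the line (60 of 69 higher in pool 1), and grey points are the other entries.

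The active libraries agreed more closely, at levels that the rule itself sets above those of queen-right workers. Its bound on the smallest active value also favours genes with even active values. The ratio of queen-less worker pool 1 to pool 2 had a median of 1.01 over the 69 genes and ran from 0.55 to 1.57, and that of queen pool 1 to pool 2 had a median of 1.03 and ran from 0.603 to 1.51. Over all 4 active libraries the highest value of a gene was 1.39 times its lowest in the median. This spread stayed under 1.5 in 47 genes and reached 2 or more in 8. LOC100577224 had the widest, with 51.5 and 93.7 RPKM in queen-less workers and 101 and 150.5 RPKM in queens.

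Among the 13 genes with a symbol, tral, cad, eve and gt have known roles in the Drosophila oocyte or embryo. tral, in Drosophila a protein of the RNA granules of the oocyte (trailer hitch), had 322 and 195 RPKM in queen-right workers, 3463 and 3845 in queen-less workers and 4408 and 4492 in queens. It had the highest level of the 13 genes with a symbol, in inactive and in active ovaries. cad, the homeobox gene caudal that in Drosophila patterns the posterior of the embryo from maternal RNA, had 43.2 and 6.74 RPKM in queen-right workers. Its active values were 921 and 874 RPKM in queen-less workers and 960.5 and 937 RPKM in queens. Its 4 active values lay close together while the inactive pools were far apart.

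The homeobox gene eve (even-skipped), a pair-rule gene of the Drosophila embryo, had 8.58 and 1.61 RPKM in queen-right workers, 137 and 152 in queen-less workers and 147 and 139 in queens. For eve the queen and queen-less worker values overlapped. gt (giant), a gap gene of the Drosophila embryo that encodes a bZIP transcription factor, had 2.68 and 3.06 RPKM in queen-right workers, 60.3 and 57.9 in queen-less workers and 73.9 and 73.3 in queens. In gt the pools of each group were alike and the 3 groups did not overlap. Dl-2, to which no role is given here, was among the lowest members, with 1.47 and 0.44 RPKM in queen-right workers, 17.7 and 16.4 in queen-less workers and 18.5 and 16.2 in queens. All 5 of these genes were far below their active levels in both queen-right pools, and in tral, cad, eve and Dl-2 pool 1 was the higher.

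Yolk uptake was represented by yl, the Drosophila yolkless gene, which encodes the receptor by which the oocyte takes up yolk protein. It had 52.0 and 25.3 RPKM in queen-right workers, 586 and 548 in queen-less workers and 642 and 608 in queens, and lay just inside the threshold at 10.54 times. Both queen values were above both queen-less worker values. Of the other genes of yolk transport in the same list, shi (dynamin, which cuts off endocytic vesicles) was at 21.8 and 19.5 RPKM in queen-right workers, 47.9 and 50.6 in queen-less workers and 48.9 and 46.4 in queens. Clc, the clathrin light chain, was at 109 and 97.3 RPKM in queen-right workers and at 74.9 to 87.0 RPKM in the others. Leaving out yl, whose difference the rule fixed, 4 genes of this list were tested by limma. In queen-less workers shi was called higher and Rfabg, also on the fat body list, lower, where 30.6% and 37% of all entries were called. In queens shi was called higher and Rfabg and Rab11, a small GTPase of vesicle recycling, lower, where 31.3% and 40.6% of all entries were called. Rfabg was also lower in queens than in queen-less workers (limma, adjusted p = 0.00614).

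The eggshell genes were Y-g and Y-g2, members of the yellow family whose Drosophila counterparts are active in follicle cells. Y-g had 4.19 and 4.56 RPKM in queen-right workers, 248 and 160.5 in queen-less workers and 289 and 278 in queens. Y-g2 had 5.86 and 6.68 RPKM in queen-right workers, 117 and 80.9 in queen-less workers and 161 and 144 in queens. Unlike most members, both were slightly higher in queen-right pool 2 than in pool 1, and in both genes queen-less worker pool 2 was the lowest active library. Their smallest active values were 35.2 and 12.1 times the larger queen-right value. They stand next to each other on scaffold NW_003377923, at 782257-785781 and 785252-791455, and their spans overlap by 530 bp, so reads in the shared stretch could have been given to either gene. The other 3 tested entries of the eggshell list were not members and did not all move one way. Pxd, of the peroxidase family, had 0.24 and 0.46 RPKM in queen-right workers, 2.98 and 3.06 in queen-less workers and 1.9 and 2.0 in queens, and was higher in both active groups by limma. Pxn (peroxidasin), also on the haemocyte list, had 29.9 and 43.4 RPKM in queen-right workers and 2.38 to 6.79 RPKM in the active libraries, and was lower in both by limma. tsl (torso-like), which Drosophila follicle cells secrete, was at 9.54 and 12.8 RPKM in queen-right workers, 8.5 and 6.36 in queen-less workers and 5.7 and 6.2 in queens, and was called lower only in queens.

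Other members with a symbol belong to receptor, motor and enzyme families. kinesin-8, a microtubule motor, had 14.03 and 7.08 RPKM in queen-right workers, 150.4 and 234 in queen-less workers and 255 and 273 in queens. Octbeta2R, a receptor for octopamine, had 2.19 and 1.15 RPKM in queen-right workers, 23.7 and 27.01 in queen-less workers and 29.6 and 26.8 in queens. CYP6AS17, a cytochrome P450, had 10.7 and 1.64 RPKM in queen-right workers, 169 and 194 in queen-less workers and 207 and 224 in queens. GMCOX2, of the glucose-methanol-choline oxidoreductase family, had 0.45 and 0.32 RPKM in queen-right workers, 12.6 and 11.8 in queen-less workers and 16.5 and 12.6 in queens, the lowest mean of the 69. Obp7, of the small secreted odorant-binding proteins, had 0.38 and 0.75 RPKM in queen-right workers, 56.4 and 42.3 in queen-less workers and 92.9 and 91.9 in queens. At most about 3 and 6 reads lie behind its queen-right values, by the depth estimated above.

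**Figure D3:**
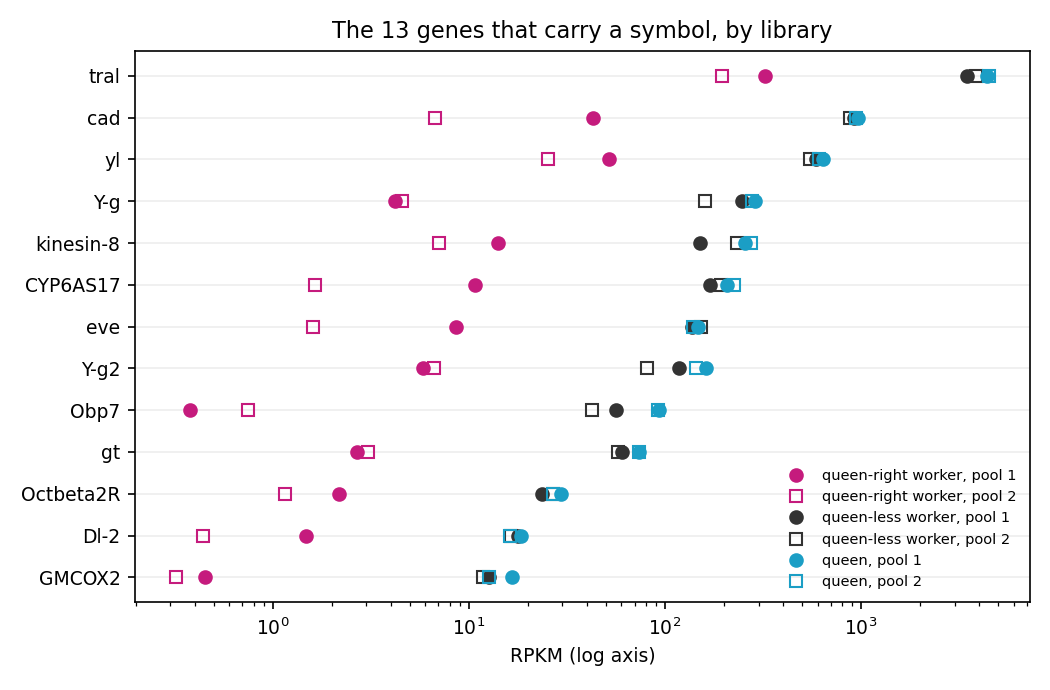
RPKM on a log axis of the 13 genes that carry a symbol, with filled circles for pool 1 and open squares for pool 2 of each group. Queen-right worker values (magenta) lie to the left of all active values, as the rule requires. The pools of queen-right workers are far apart for cad, CYP6AS17 and eve and close for Y-g, Y-g2 and gt.

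The largest values belonged to genes without a symbol. LOC726487 ranked first of all 11169 entries in each of the 4 active libraries, with 4252 and 3857 RPKM in queen-less workers and 5398 and 5569 RPKM in queens. In queen-right workers it had 266 and 128 RPKM and ranked 193 and 449. LOC100578903 had 104 and 8.45 RPKM in queen-right workers, 2714 and 3429.6 in queen-less workers and 3421 and 3881 in queens. The ratio between its queen-right pools was larger than that between any of its active libraries.

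LOC100578025 had 8.49 and 2.26 RPKM in queen-right workers, 2498 and 1915 in queen-less workers and 2542 and 2657 in queens. LOC100577041 had 31.7 and 7.8 RPKM in queen-right workers, 1441 and 1752 in queen-less workers and 1924 and 2013 in queens. LOC100577698 had 2.36 and 4.72 RPKM in queen-right workers, 1475 and 1251 in queen-less workers and 1309 and 1014 in queens. It was the only gene with a mean over 1000 RPKM in the active libraries that was higher in queen-right pool 2. LOC551099 had 74.3 and 37.8 RPKM in queen-right workers, 800.2 and 945 in queen-less workers and 1164 and 1180.2 in queens.

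By the ratio of the smallest active to the larger queen-right value, 23 genes lay between 10 and 12 times, 23 between 12 and 20, 15 between 20 and 50, 2 between 50 and 100, and 6 above that, with a median of 15.9. For 2 of the last 6 the ratio rests on very few reads. LOC100578829 had 0.09 and 0 RPKM in queen-right workers, which is at most about 1 read in all, against 22.5 to 34.4 RPKM in the active libraries. LOC100578107 had 0 and 0.34 RPKM, at most about 5 reads, against 160.1 and 132 RPKM in queen-less workers and 198 and 186 RPKM in queens. No fold is given for these genes. The others were LOC100578025 (226 times), LOC100577698 (215 times), LOC100576982 (173 times) and LOC100578442 (122 times). LOC100576982 had 1.35 and 1.18 RPKM in queen-right workers, 271 and 233 in queen-less workers and 302 and 256 in queens. LOC100578442 had 0.65 and 0.24 RPKM in queen-right workers, 85.4 and 92.4 in queen-less workers and 80.8 and 79.5 in queens. Both genes were low in both queen-right pools. Of the genes with the next largest ratios, LOC100576529 (56.2 times) had 0.41 and 0.27 RPKM in queen-right workers. It had 23.0 and 25.7 RPKM in queen-less workers and 32.4 and 28.4 in queens. LOC100577235 (36.6 times) had 5.61 and 0.21 RPKM in queen-right workers, 231 and 205 in queen-less workers and 278 and 288 in queens. In 6 of the 69 genes the queen-right values rest on at most about 10 reads in each pool.

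Genes just inside the fold differed little from those just outside it, while at the level there was a gap. Just inside the fold were LOC100578780 (10.2 times), yl (10.54 times) and LOC409646 (10.55 times). Just outside were LOC725270 (9.85 times), Myo3 (9.65 times) and kinesin-14 (9.58 times). Just inside the level were LOC100578654 with a smallest active value of 10.4 RPKM, GMCOX2 with 11.8 and LOC410801 with 13.5. Just outside were LOC724961 with 6.69, LOC100579050 with 6.41 and LOC408539 with 5.36 RPKM.

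By level, 7 members had a mean above 1000 RPKM in the active libraries, those described above together with tral. Another 11 had a mean of 300 to 1000 RPKM, with active values from 258 to 960.5 RPKM and queen-right values from 0.41 to 66.3 RPKM. All 11 were higher in queen-right pool 1. These were cad, yl, LOC100578571, LOC100576271, LOC100578468, LOC724752, LOC726468, LOC726542, LOC725766, LOC725821 and LOC100578984. A further 22 had a mean of 100 to 300 RPKM, with active values from 52.6 to 348 RPKM and queen-right values from 0 to 19.9 RPKM, and 19 of them were higher in pool 1. The next 16 had a mean of 30 to 100 RPKM, with queen-right values from 0.24 to 5.44 RPKM, and 12 were higher in pool 1. The last 13 had a mean of 10 to 30 RPKM, with queen-right values from 0 to 2.19 RPKM, and 12 were higher in pool 1.

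Queens against queen-less workers is the only comparison of groups that the rule did not use, since it treats the 4 active libraries alike. The 69 genes were on the whole slightly higher in queens, but no single gene passed the test. The limma fit held all 6 libraries, on log2(RPKM + 1) after the authors' scaling. Its p-values were adjusted by Benjamini-Hochberg over the 8778 entries that reached 1 RPKM in 2 libraries or more. All 69 genes were tested, as the rule itself sets them above this filter. Of all entries 130 were called (1.48%), 7 higher (0.0797%) and 123 lower (1.4%) in queens. Of the 69 genes 0 were called. At an unadjusted p under 0.05 there were 13, each higher in queens, where 3.96% of all entries were higher at that level. No other tool was run. The log2 difference of the members had a median of 0.26 and ran from -0.29 (LOC406114) to 1.06 (LOC724395), while the median of all entries tested was -0.05. It was above 0 in 62 of the 69 genes, against 42.6% of all entries. Both queen libraries were above both queen-less worker libraries in 45 of the 69 genes and below in 1, where 20.7% and 34.5% of all entries were so placed. Among the 5272 other tested entries with a mean of at least 10 RPKM in the active libraries, the median was -0.0022 and 26.5% had both queen libraries on top. Muscle markers moved the other way, with 5 of 10 lower in queens than in queen-less workers and a median of -1.13, and 2 of 9 fat body genes were lower, with a median of -0.69. Their part in the shift of the members was not tested.

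**Figure D4:**
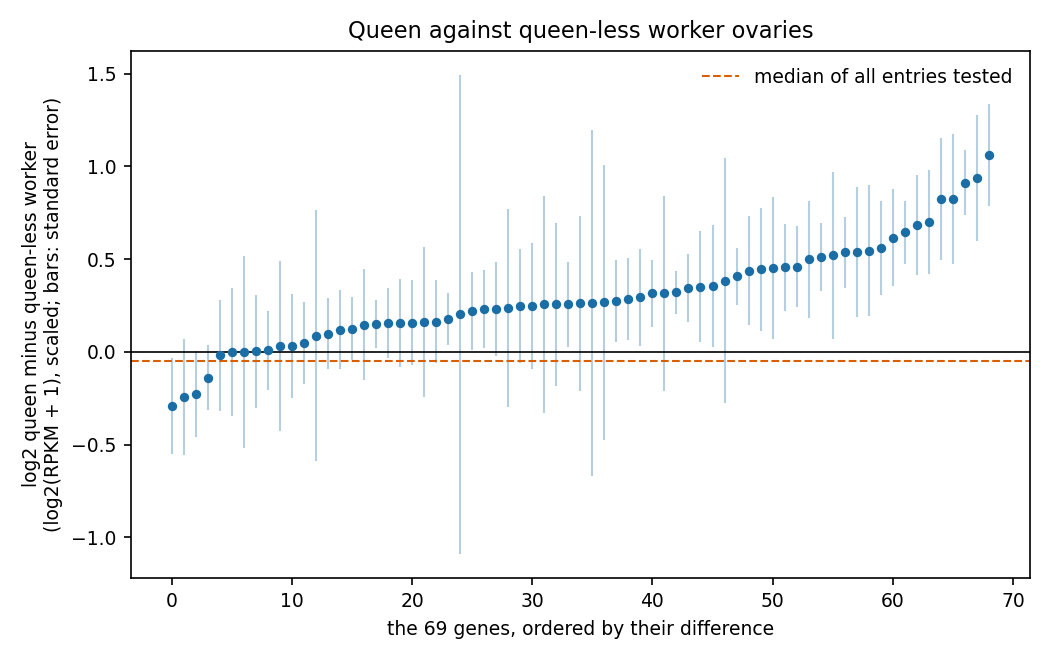
Log2 difference of each of the 69 genes between queens and queen-less workers, on the scaled log2(RPKM + 1) scale and ordered by size, with its standard error. Most points (62 of 69) lie above 0, and the dashed line is the median of all tested entries (-0.05).

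Obp7 came closest to the threshold in this comparison. Its means were 92.4 ± 0.686 RPKM (SD, n = 2 pools) in queens and 49.3 ± 9.95 RPKM (SD, n = 2) in queen-less workers. The log2 difference was 0.91 (standard error 0.17, limma, adjusted p = 0.0591). Among the alternatives it passed only with a pseudocount of 5 (limma, adjusted p = 0.0386). LOC724395 had 2.24 and 1.18 RPKM in queen-right workers, 52.6 and 84.2 in queen-less workers and 153 and 127 in queens. Its difference was the largest at 1.06 (standard error 0.28, limma, adjusted p = 0.135), and both queen values lay above both queen-less worker values. LOC412771 had 2.83 and 0.73 RPKM in queen-right workers, 67.5 and 59.2 in queen-less workers and 114 and 129 in queens, a difference of 0.94 (standard error 0.34, limma, adjusted p = 0.243). It passed when only the 4 active libraries were fitted (limma, adjusted p = 0.0311) and when either queen-right library was left out (limma, adjusted p = 0.0292 without pool 1 and 0.028 without pool 2).

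Among the genes with a symbol, the difference between queens and queen-less workers was 0.65 for Y-g2 (standard error 0.17, limma, adjusted p = 0.141) and 0.51 for Y-g (standard error 0.18, limma, adjusted p = 0.235). It was 0.32 for gt (standard error 0.11), 0.50 for kinesin-8 (0.32), 0.29 for tral (0.26) and 0.15 for yl (0.30). Some of these values rest on 1 library. Without queen-less worker pool 1 the difference was 0.17 for kinesin-8 and 0.81 for Y-g, and without queen-less worker pool 2 it was 0.83 for kinesin-8, 0.21 for Y-g and 0.39 for Y-g2. For cad it was 0.09 with a standard error of 0.68 and for eve -0.00058 with 0.52, so the error was larger than the difference in both. The errors depended on the queen-right pools. With all 6 libraries the median standard error of the members was 0.28, against 0.18 over all entries, and with the 4 active libraries alone it was 0.12, against 0.16. In that fit 32 of the 69 genes had an unadjusted p under 0.05, all higher in queens, where 6.65% of all entries were higher at that level. LOC412771 alone passed after adjustment. The rule bounds the smallest of these same 4 values, which favours genes with high and even active values. The lower error and the count of 32 are therefore no test of the members as a set, and no share of entries of like level was taken.

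Genes of related function that were not part of the selection give a scale for these changes. Queen-less workers and queens were compared with the same queen-right libraries, so these comparisons share their controls. Of 10 germline genes tested, 6 were higher in queen-less workers and 1 was lower, by limma (30.6% and 37% of all entries), with a median log2 difference of 0.47. In queens 5 were higher and 1 lower (31.3% and 40.6% of all entries), with a median of 0.40. The medians of all entries were -0.13 and -0.19. vas and Ago3, a Piwi-family protein, changed most of the 10, by 3.60 and 2.63 in queen-less workers, while orb, which regulates translation in the oocyte, was lower by limma, at 963 and 1058 RPKM in queen-right workers and 523 to 623 RPKM in the active libraries. nanos, a repressor of translation in the germline, was at 21.6 and 27.9 RPKM in queen-right workers and 18.6 to 28.1 RPKM in the active libraries. Of 5 genes of meiosis and cell division 4 were higher in each active group and 0 lower, with medians of 2.00 and 2.02. cort, which in Drosophila drives the end of meiosis in the egg, was at 6.78 and 6.02 RPKM in queen-right workers and 29.4 to 38.9 RPKM in the active libraries. Between queens and queen-less workers none of these germline and meiosis genes was called by limma (lowest adjusted p that of BicD, 0.27). Only 1.48% of all entries were called in that comparison, so lists of this size would seldom hold a called gene.

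The position of the genes was not used to choose them. The 69 genes lie on 50 of the 846 scaffolds of the authors' assembly, whose build is not given in the sources used here. By gene identifier 62 matched the RefSeq annotation of Amel_HAv3.1, all 62 as protein-coding, as were 99.2% of the tested entries that matched. Those 62 lie on 15 of the 16 linkage groups, 11 of them on linkage group 1, which holds 13.01% of all matched entries. Along the scaffolds 10 genes stood directly next to another member, in 5 pairs, and 11 had another member within 5 entries, against 9 in the gene order of Amel_HAv3.1. In the pair of LOC100577973 and LOC100578042 only the latter matched Amel_HAv3.1.

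LOC726468, LOC726487 and LOC726542 lie together on scaffold NW_003378169 at 624073-631218, 636372-636877 and 637937-651946. LOC726468 had 15.2 and 9.01 RPKM in queen-right workers, 438 and 407 in queen-less workers and 502 and 523 in queens. LOC726542 had 35.6 and 24.1 RPKM in queen-right workers, 443 and 426 in queen-less workers and 498 and 429 in queens. Around them stood entries that were also higher in the active libraries but below the rule. LOC100577833, which overlaps LOC726468 by 1699 bp, had 26.1 and 17.8 RPKM in queen-right workers and 213 to 335 RPKM in the active libraries. LOC406132 had 44.2 and 40.0 RPKM in queen-right workers and 256 to 293 RPKM in the active libraries. Not all entries of the stretch were high, since LOC726447 within LOC726468 was at 0.23 RPKM or less in every library. LOC551699 and LOC551156, at the ends, were lower in the active libraries.

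LOC100578025 and LOC100578107 stand next to each other on scaffold NW_003378091 at 198495-199649 and 202030-204666, with 2380 bp between them. Both lie within the span of LOC100578055, which was at 22.8 and 19.3 RPKM in queen-right workers and 17.3 to 37.2 RPKM in the active libraries. LOC100576529 and LOC100576569 are 323 bp apart on scaffold NW_003378039, and LOC100577973 and LOC100578042 are 359 bp apart on scaffold NW_003377997. LOC100577973 had 1.65 and 0.38 RPKM in queen-right workers and 20.02 to 32.6 RPKM in the active libraries, and LOC100578042 had 0.97 and 0.38 RPKM and 15.6 to 23.2 RPKM. LOC100577973 had no match in Amel_HAv3.1, where LOC100578042 spans 12652 bp, against 1248 bp in the authors' assembly. Whether LOC100577973 and LOC100578042 are parts of a single gene was not tested.

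**Figure D5:**
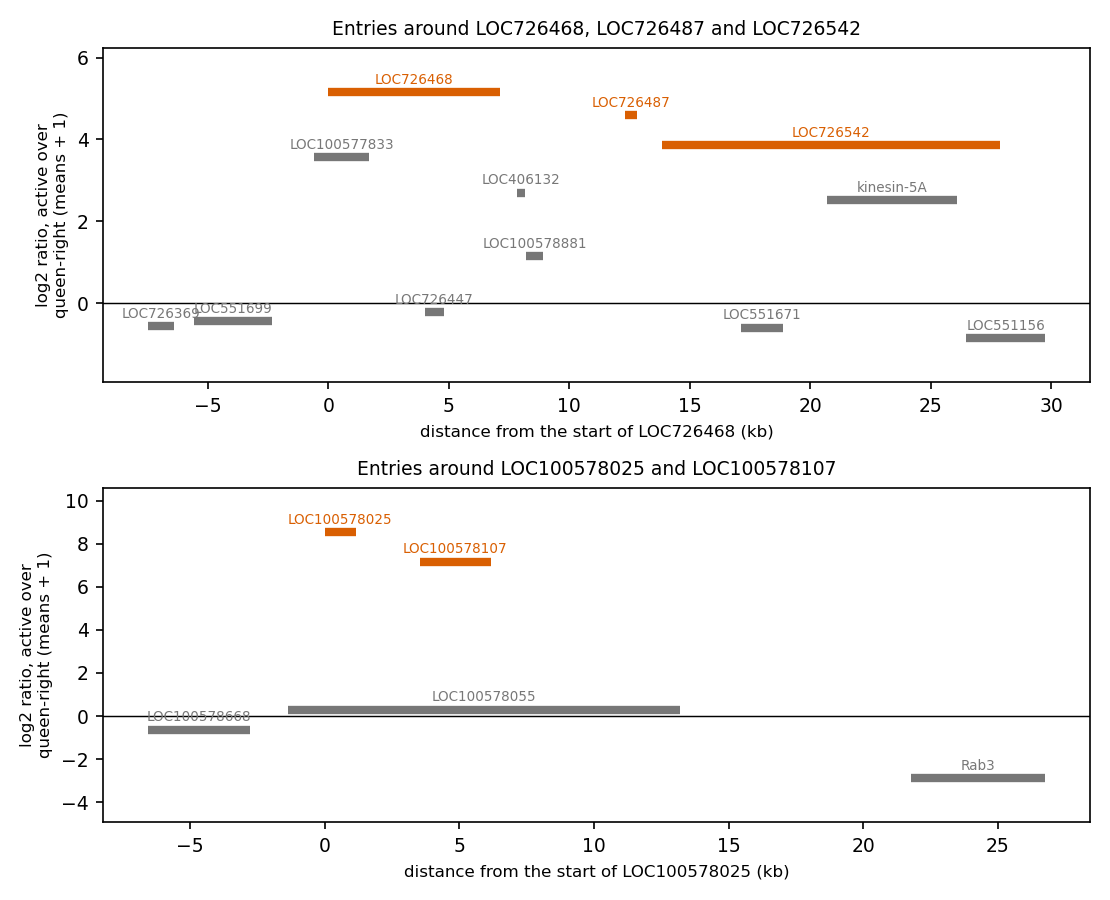
Log2 ratio of the mean RPKM + 1 of the 4 active libraries to that of the queen-right libraries for entries around 2 groups of neighbouring members, placed by their distance in kb from the first member's start. Members (orange) lie between 3.87 and 8.56, above every other entry shown (grey), of which LOC100577833 at 3.57 is the highest. The rule chose members by a like ratio, so their place above the grey entries is largely set by it.

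Several genes lie inside a longer gene. Of the 69, 11 (15.9%) fall within the span of another entry, against 3.91% of the tested entries. LOC100578903 lies within Nrx-1 (neurexin, a synaptic adhesion protein), which had a mean of 6.85 RPKM in the active libraries against 3361 RPKM for LOC100578903. LOC100579058 lies within disp (dispatched, which releases Hedgehog), at a mean of 14.7 RPKM against 109 RPKM. In 2 of the 11 the surrounding entry was the higher one. LOC725155, around LOC725047, had a mean of 213 RPKM against 132 RPKM, and LOC408408, around LOC725925, had 70.1 RPKM against 46.4 RPKM. Whether reads of nested genes were told apart by strand is not given in the sources used here. The genes were otherwise of common size, with a median span of 3463 bp (506 to 46191 bp) against 3835.5 bp over the tested entries. Spans over 20 kb were rarer, 2 genes (2.9%) against 12.7%. These spans and overlaps are those of the deposited gene models, and some spans differ widely in Amel_HAv3.1. Octbeta2R has 7414 bp in the deposited models and 178039 bp in Amel_HAv3.1, and LOC726542 has 14010 bp and 545 bp. A single annotated transcript was listed for 37 of the 62 matched genes (59.7%), against 46.9% of the tested entries that matched.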

How the data were processed

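Pooled ovaries were sequenced in 6 RNA-seq libraries, 2 each of queen-right workers, queen-less workers and queens, and samples were grouped by their source in the labels. The RPKM values deposited are those of each library, as made by the authors. The authors' normalized signal is RPKM + 1 times a factor that is constant within a library (0.856 to 1.01), and only these factors were taken from it. The aligner, the counting program and the genome build are not given in the sources used here. Another 12 columns of values per sample, the group means and the authors' p-values of their comparisons were not used.

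The members were found by their rule in the deposited RPKM. Members, gene lists and tests were chosen with earlier results of these data known. The filter kept entries at 1 RPKM or more in 2 or more libraries. limma (version 3.58.1, R 4.3.3) was run on log2(RPKM + 1) plus the log2 factor, with 1 mean per group, a trend in the variance and Benjamini-Hochberg adjustment at 0.05. A fold on this scale understates the change of low genes. Nothing in the sources says that the pools came from separate colonies, so p-values measure only the spread between these pools, which may be technical. An exact permutation test of 2 pools against 2 has a smallest two-sided p of 0.333. In simulated data for queens against queen-less workers (8704 genes), 96% of genes changed by 2 and 66% of those changed by 1 (log2) passed, with 4 false calls. The changed genes were drawn only from entries of higher level, and each gene had the same spread in every group. The members had a median standard error of 0.28, against 0.18 over all entries, so these shares do not hold for the 69 genes.

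Relative depth was read from ratios of values between 0.4 and 2 RPKM, and the most reads behind a value from RPKM, gene span and the lowest product of both; these steps were set after seeing the data. Lists were matched by symbol, and aub, found on 2 entries, was left out. Named are the 10 members with the highest mean, the 10 with the largest ratio, those with a symbol, neighbours and entries nearest the thresholds. LOC724395, LOC412771, LOC406114, LOC100577224, the other members listed by level, entries that overlap or surround members and list genes given as examples were picked after their values were seen. Sequences were not used here, so promoters and proteins were not compared. Alternatives covered the filter, pseudocount, scaling, block, libraries and rule.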

Additional observations from a re-analysis of the deposited data

How the results depend on the processing

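Among 8778 entries, 130 were called between queens and queen-less workers. This count became 68 with a pseudocount of 5, 40 with no filter on low values, 82 with quantile normalization, 42 with only the 4 active libraries and 35 to 85 with each replicate left out in turn. Of the 69 genes 0 were called, and 1 with the pseudocount of 5 (Obp7), 1 with the 4 libraries (LOC412771) and 0 to 1 with each replicate left out. Members higher in queens numbered 54 to 65 and their median difference was 0.25 to 0.29 with each replicate left out. With a fold of 5 the rule kept 151 genes and with 20 it kept 23, by construction, and 69 to 112 with each replicate left out (112 without queen-right worker replicate 1). The difference of eve, -0.00058, became 0.0021 with quantile normalization and 0.0306 with the median of ratios, and ran from -0.0868 to 0.0857 with each replicate left out; that of Dl-2, 0.03, ran from -0.0608 to 0.12. The cause was not tested. The deviations of same-numbered pools correlated at -0.129, -0.0862 and 0.0614 between the groups. The labels do not say whether same-numbered pools share a source, and these correlations cannot decide it. With the replicate block 72 entries and 0 of the 69 genes were called.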
